A study of Homo sapiens with 8 samples.

Results

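Respiratory complex I is built from subunits of 2 genomes and is assembled with the help of proteins that do not stay in the finished enzyme. The genes described here are the nuclear subunits and assembly factors whose symbol starts with NDUF and goes on with A, AB, AF, B, C, S or V and a number. This rule took 46 of the 62703 genes in the deposited gene table. They are 37 subunits, 8 assembly factors (NDUFAF1 to NDUFAF8) and NDUFA4, whose protein was once counted in complex I and is now assigned to complex IV. The rule reads the symbol alone and uses no measured value.

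The genes were measured in HepaRG cells, a terminally differentiated human hepatic line, with a split-pool barcoding assay for single cells (Parse Evercode). The cultures were treated for 24 h with rotenone (0.2 or 0.4 µM, which blocks complex I), cycloheximide (0.2, 2 or 20 µM, which blocks protein synthesis), etoposide (0.25, 2.5 or 25 µM, which blocks topoisomerase), tunicamycin (0.001, 0.01 or 0.1 µM, which blocks N-linked glycosylation), brefeldin A (0.001, 0.01 or 0.1 µM, which blocks transport to the Golgi), tert-butylhydroquinone (tBHQ; 3, 30 or 300 µM, an activator of NRF2) or troglitazone (50 µM in the cell table, an agonist of PPARγ), or were kept in medium or in DMSO, and all chemicals and the control carried 0.1% DMSO as vehicle. The troglitazone dose in the cell table is not one of those in the sample labels (0.001, 0.01 and 0.1 µM), and the cell table holds no culture at 0.8 µM rotenone. All cultures are of 1 cell line. The paper describes a single treated culture per condition for its main experiment, which used another platform (TempO-LINC). The cell table used here numbers replicates within a condition. No source used here says whether these were grown separately, so their spread may be technical.

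The 8 sequenced samples are aliquots (sublibraries) of 1 pool, and each cell's culture comes from the deposited cell table. Of 12976 cells, 8406 had at least 500 genes and at most 20% mitochondrial unique molecular identifiers (UMIs). A total of 38 of 47 cultures kept at least 30 such cells and were used, with between 1741603 and 97081214 UMIs. The number that opens a culture's name in the cell table is called its run here, which is a reading of the name, since no label says what it marks. Rotenone 0.4 µM had 2 cultures (runs 5 and 6) and DMSO had 4 (runs 3, 4, 5 and 6). Run 1 gave too few cells throughout. Levels are counts per 1000000 UMIs (CPM) of the summed cells of a culture. The summed level of the 37 subunits lay between 1246 and 1304 CPM over the 8 sublibraries, and that of the 8 assembly factors between 331 and 343 CPM. Of 12063 well barcode combinations, 822 were seen in more than 1 sublibrary, so a part of the cells in different sublibraries can be told apart only by the sublibrary.

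Depth and cell state differed between the cultures compared. The median cell held 184485 and 45112 UMIs in the 0.4 µM rotenone cultures of runs 5 and 6, against between 17080 and 79381 UMIs in DMSO. The DMSO culture of run 4 stood apart with a median of 2.46% mitochondrial UMIs, against 12.3% to 14.8% in the other DMSO cultures, and the 0.2 µM cycloheximide culture (1.23%) and the troglitazone culture (3.24%) of run 4 were low as well. The 5 mesenchymal markers COL1A1, COL3A1, ACTA2, PDGFRB and LUM summed to 42.5 and 37.8 CPM at 0.4 µM rotenone, against between 104 and 209 CPM in DMSO. The 8 hepatocyte markers summed to 17637 and 9135 CPM at 0.4 µM rotenone, against between 10178 and 24866 CPM in DMSO, while the hepatocyte factor HNF4A was at 24.1 and 44.7 CPM, against between 95.7 and 137 CPM. CYP3A4 was at 3.92 to 5.99 CPM, against 20.5 to 60.8 CPM, and the remaining hepatocyte markers, ALB among them, overlapped DMSO. The cholangiocyte markers KRT19, KRT7, SOX9, CFTR and EPCAM summed to 74.9 and 97.0 CPM at 0.4 µM rotenone, against between 89.9 and 144 CPM in DMSO. The 3 endothelial markers summed to 3.23 and 3.64 CPM at 0.4 µM rotenone, against between 5.90 and 11.1 CPM in DMSO, nearly all of it PECAM1 (2.39 to 2.80 CPM, against 5.26 to 10.8 CPM), while CDH5 stayed at or under 0.377 CPM and VWF at or under 1.16 CPM in every culture. The 3 immune markers summed to 12.4 and 22.2 CPM, against between 11.9 and 34.5 CPM, most of it CD68 (10.4 to 19.9 CPM, against 9.64 to 31.6 CPM). CD14 was at 0.960 to 1.26 CPM, against 1.87 to 2.57 CPM, and PTPRC at 1.03 to 1.12 CPM, against 0.0797 to 0.293 CPM. The part that these differences have in the results was not tested.

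Complex I takes electrons from NADH, passes them along a chain of iron-sulphur clusters to ubiquinone and pumps protons across the inner mitochondrial membrane. Its N module holds the NADH site, its Q module binds ubiquinone and its membrane arm pumps protons. Of the 37 subunits, 8 belong to the N module, 8 to the Q module and 20 to the membrane arm, and NDUFAB1 is the mitochondrial acyl carrier protein. A set of 7 core subunits, NDUFV1 and NDUFS1 among them, carries the catalytic chain, and the other 30 are supernumerary. The 7 remaining core subunits are encoded by mitochondrial DNA. Hepatocytes are rich in mitochondria, and complex I is the site that rotenone blocks.

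Promoter windows from RefSeq (GRCh38.p14, with 250 bases before and 50 bases after the RefSeq start of transcription) were found for 39 of the 46 members. For 22 of the 39 that start lay within 100 bases of the 5′ end of the GENCODE gene. For NDUFV3, which fell at 0.4 µM rotenone, it lay 13665 bases away. Members that rose had distances as large, at 13738 bases for NDUFS3 and -43747 bases (upstream of that end) for NDUFA5. The stretches printed here belong to 4 members on which the rotenone results turn, and each ends before the start of that member's own annotated gene. Whether a neighbouring gene on either strand is transcribed from these bases was not checked. NDUFA12 and NDUFAF2 are paralogs, the subunit and the assembly factor that holds its place during assembly. At 0.4 µM rotenone NDUFA12 rose, while NDUFAF2 was lower relative to the total UMI count. The log2 fold change of NDUFAF2 (-0.65) was close to the median of all genes tested (-0.56) and above that of genes over 100 kb, its length class (-0.97). NDUFA9 and NDUFAF4 are a Q module subunit and an assembly factor that both rose. Each run reads 5′ to 3′ along the gene's strand, and capitals mark a match to one of the motifs searched.
NDUFA12, chr12:95003749-95003947, minus strand: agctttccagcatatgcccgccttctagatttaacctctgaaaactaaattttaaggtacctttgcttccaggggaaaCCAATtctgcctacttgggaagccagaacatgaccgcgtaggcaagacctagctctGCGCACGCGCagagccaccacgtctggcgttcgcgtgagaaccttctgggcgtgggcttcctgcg
NDUFAF2, chr5:60944955-60945176, plus strand: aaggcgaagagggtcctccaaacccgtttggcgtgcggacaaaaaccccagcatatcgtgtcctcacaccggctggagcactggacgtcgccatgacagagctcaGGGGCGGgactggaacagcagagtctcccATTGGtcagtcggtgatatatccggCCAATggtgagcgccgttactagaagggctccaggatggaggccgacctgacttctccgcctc
NDUFA9, chr12:4648864-4649094, plus strand: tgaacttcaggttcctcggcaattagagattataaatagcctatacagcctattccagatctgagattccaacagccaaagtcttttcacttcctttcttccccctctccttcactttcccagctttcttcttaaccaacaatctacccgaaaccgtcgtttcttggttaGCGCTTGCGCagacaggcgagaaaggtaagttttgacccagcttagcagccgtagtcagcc
NDUFAF4, chr6:96897892-96898141, minus strand: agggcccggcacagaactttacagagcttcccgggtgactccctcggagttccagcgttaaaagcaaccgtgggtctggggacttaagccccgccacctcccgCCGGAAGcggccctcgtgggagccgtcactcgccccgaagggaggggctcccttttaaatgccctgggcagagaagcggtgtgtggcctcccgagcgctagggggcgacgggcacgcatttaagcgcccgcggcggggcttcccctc
In NDUFA12 the capitals mark a CCAAT box (172 to 168 bases before the RefSeq start) and a match to the NRF1 consensus (116 to 107 bases before it). In NDUFAF2 they mark an SP match (145 to 139 bases before the start) and a pair of CCAAT boxes on opposite strands (116 to 112 and 91 to 87 bases before it). In NDUFA9 they mark an NRF1 match (80 to 71 bases before the start), and in NDUFAF4 an ETS match (147 to 141 bases before it).

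A total of 6 motifs were searched on both strands, and none of them contains another. The YY1 letters AANATGGCG were in 25.6% of the member windows (10 of 39), against 3.37% of all 27305 promoter windows, and all 10 were subunits, with 0 of 7 assembly factors. The NRF1 consensus (GCGCA, any base, then GCGC) was in 17.9% of the member windows, against 6.28% of all windows. The ETS letters CCGGAAG were in 15.4% against 10.7%, the cyclic AMP response element TGACGTCA in 5.13% against 1.98%, the SP letters GGGGCGG in 28.2% against 30.7% and the CCAAT box in 28.2% against 35.7%. The CCAAT box was in the windows of all 4 members that fell at 0.4 µM rotenone, in 4 of the 20 that rose and in 3 of the 15 that did not pass the test. None of those 4 falls passed with trimmed-mean scaling or with DESeq2. These are matches of letters only and carry no test.

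Complex I transcripts differed widely in level in DMSO cultures. Per kilobase of exon, the highest were the membrane arm subunit NDUFA1 at 69.5 ± 15.0 CPM per kb (mean ± SD, n = 4 here and for the other DMSO levels), the N module subunit NDUFS4 at 66.5 ± 13.5 CPM per kb and the membrane arm subunit NDUFS5 at 51.0 ± 7.42 CPM per kb, and the first pair did not differ beyond their spread. NDUFA4 followed at 30.1 ± 3.66 CPM per kb. NDUFA7, a Q module subunit, was the lowest at 0.516 CPM per kb. Among the assembly factors NDUFAF6 was the highest at 14.3 ± 2.14 CPM per kb and NDUFAF1 the lowest at 2.58 ± 0.44 CPM per kb. The class medians were close, 7.16 CPM per kb for the assembly factors and 7.19 CPM per kb for the subunits. The length used was that of all annotated exons merged, and in CPM alone the order was different. There NDUFAF6 (177 CPM), NDUFS1 (152 CPM) and NDUFA4 (104 CPM) were the highest, and NDUFA1 had 29.2 CPM. Over the 35 cultures without rotenone the levels of the subunits had a median coefficient of variation of 24.1% (9.99% for NDUFV3 to 52.6% for NDUFA7), and those of the assembly factors of 20.3% (13.4% to 25.7%).

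Most of the subunits that changed at 0.4 µM rotenone rose. Against DMSO, 22 of 37 subunits rose and 2 fell by edgeR's quasi-likelihood test with Benjamini-Hochberg adjustment over 19831 genes at 0.05, where 19.1% of all genes tested rose and 42.2% fell. The median log2 fold change of the subunits was 0.81, that of all genes tested was -0.56, and 32 of the 37 subunits had a positive value. Among genes with at least 10 CPM on average, 61.1% of the subunits rose and 5.56% fell, against 27% and 40.1% of all genes. The median of all those genes was -0.26, nearer to that of the subunits (0.82). Of the 8 assembly factors 2 rose and 2 fell, with a median of -0.14. Both rotenone cultures lay above all 4 DMSO cultures for 24 subunits and below all of them for 3, where the shares over all genes were 22.2% and 46.4%. In summed cells, fewer cells of a type and less RNA per cell cannot be told apart.

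The summed level of the 37 subunits was 2028 and 1864 CPM in the 0.4 µM rotenone cultures and 1581 CPM in the 0.2 µM culture, against 1079, 1065, 1180 and 1162 CPM in the DMSO cultures of runs 3 to 6. All 3 rotenone cultures were above the 4 DMSO cultures, and also above the highest other culture (troglitazone of run 6, 1451 CPM). The summed level of the 8 assembly factors was 335 and 346 CPM at 0.4 µM and 307 CPM at 0.2 µM, against 365, 425, 291 and 332 CPM in DMSO, and these groups overlapped. The median cell showed the same order, with 1956 and 1792 CPM of subunit transcripts at 0.4 µM and 1524 CPM at 0.2 µM, against 1050, 1013, 1177 and 1148 CPM in DMSO.

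**Figure D1:**
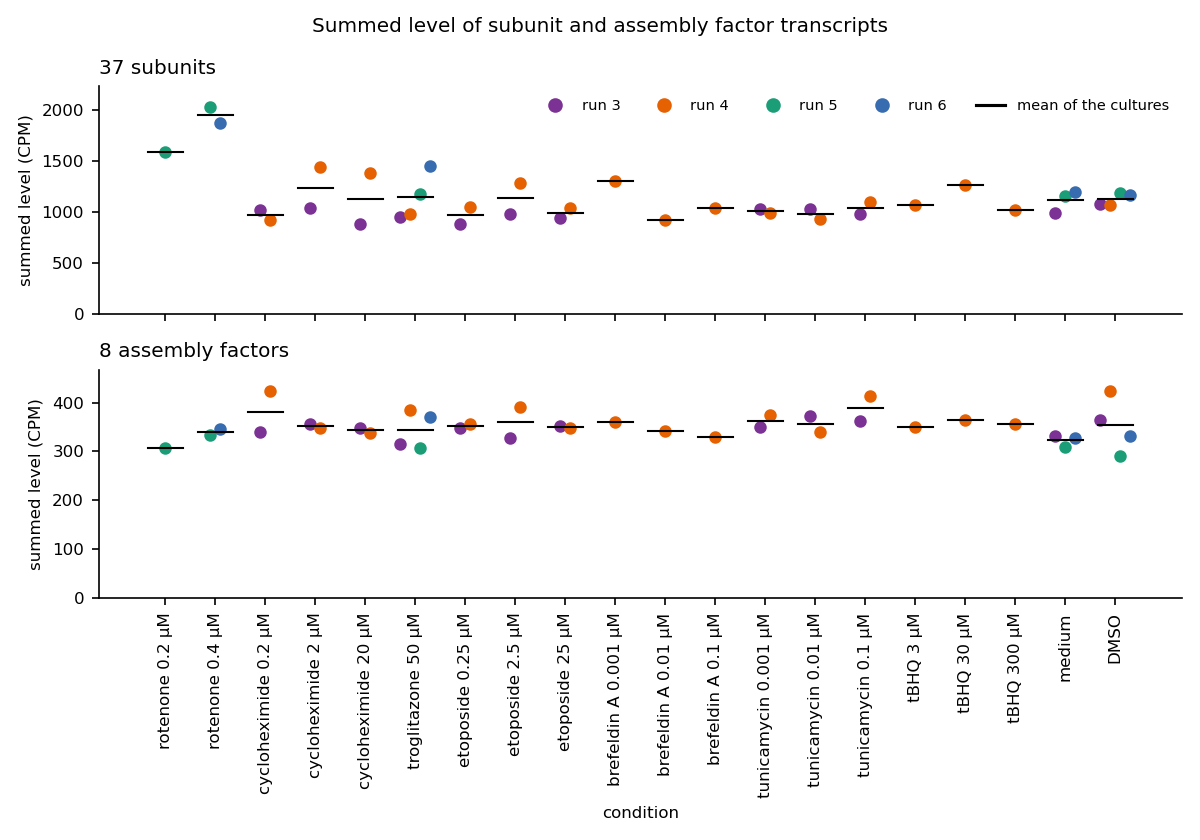
Summed level (CPM, vertical axes from 0) of the 37 subunits (top) and of the 8 assembly factors (bottom) in each culture, by treatment and dose; each point is 1 culture, coloured by run, and the line is the mean of the cultures. The rotenone cultures sit between 1581 and 2028 CPM for the subunits, above all others, and between 307 and 346 CPM for the assembly factors, inside the DMSO range of 291 to 425 CPM.

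The scaling sets how these counts read. With trimmed-mean (TMM) scaling the median of all genes was -0.10 (log2), 30 subunits rose and 0 fell, and 3 assembly factors rose and 0 fell. With DESeq2 the median of all genes was -0.04, 31 subunits rose and 0 fell, and 3 assembly factors rose and 0 fell. The share of all calls that were higher was larger under these settings, with 5570 genes higher and 6078 lower under TMM and 5643 higher and 5564 lower under DESeq2, against 3794 higher and 8373 lower with the total count. The falls of NDUFB1, NDUFV3, NDUFAF2 and NDUFAF5 are therefore falls relative to the total UMI count, and none of these 4 genes passed the test under TMM or DESeq2. With medium in place of DMSO 22 subunits rose and 1 fell, and 2 assembly factors rose and 2 fell, where 19.2% and 43.1% of all genes did, and with troglitazone in its place 16 subunits rose and 1 fell, and 2 assembly factors rose and 2 fell, where 18.4% and 41% did (both chosen after seeing the data). Without the DMSO culture of run 4, 19 subunits rose and 1 fell, and 2 assembly factors rose and 1 fell.

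**Figure D2:**
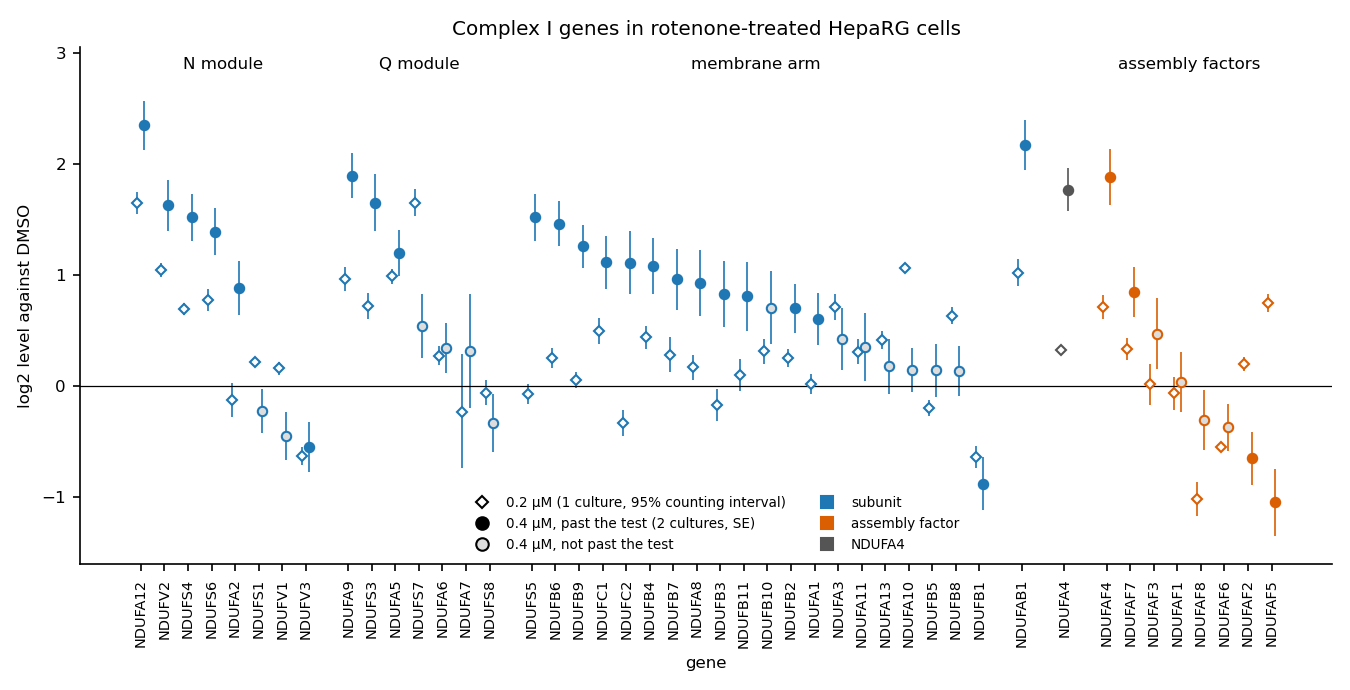
Log2 level against DMSO (vertical axis) of the members reported (horizontal axis, by module) at 0.4 µM rotenone (circles, 2 cultures, bars are the standard error of the fit, filled where the adjusted p was under 0.05) and at 0.2 µM (open diamonds, 1 culture, bars are 95% counting intervals). At 0.4 µM most subunits lie above 0, up to 2.35 for NDUFA12, while the 8 assembly factors lie between 1.88 and -1.05.

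Of the N module, 5 of 8 subunits rose and 1 fell, with a median log2 fold change of 1.14. NDUFA12, an accessory subunit at the edge of the NADH module (12:94895297-95003748, GRCh38), had 106 and 70.1 CPM in the 0.4 µM rotenone cultures, against 15.5, 16.4, 18.7 and 18.7 CPM in DMSO. The rotenone cultures were well apart from each other and both far above DMSO. This was the largest rise among the members (log2 fold change 2.35, SE 0.22, adjusted p = 3.8e-06). It was present within each run, with log2 values of 2.50 in run 5 and 1.91 in run 6.

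NDUFV2, a core subunit with an iron-sulphur cluster, had 188 and 113 CPM at 0.4 µM rotenone, against 43.3, 48.3, 47.4 and 57.3 CPM in DMSO (log2 fold change 1.63, SE 0.23, adjusted p = 6.6e-05). NDUFS4, a small subunit needed for a stable N module, had 241 and 203 CPM, against 73.1, 101, 64.6 and 73.5 CPM (1.52, adjusted p = 7.3e-05). NDUFS6, which holds a zinc ion, had 49.9 and 51.5 CPM, against 20.6, 15.8, 21.0 and 19.3 CPM (1.39, adjusted p = 0.00012). No rotenone culture overlapped DMSO for these 3 genes. NDUFA2 rose less (log2 fold change 0.88, adjusted p = 0.0078).

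The core subunits NDUFV1 and NDUFS1, which hold the NADH site and several of the iron-sulphur clusters, were not among the rising genes. NDUFV1 had 46.9 and 50.4 CPM at 0.4 µM rotenone, against 67.7, 81.9, 60.5 and 56.6 CPM in DMSO, with no overlap but an adjusted p of 0.085 (log2 fold change -0.45). NDUFS1 had 146 and 114 CPM, against 151, 149, 139.8 and 169 CPM (-0.23, adjusted p = 0.35), which overlap. NDUFV3, which forms an extra subunit of the NADH module, had 28.4 and 39.2 CPM, against 46.3, 57.9, 45.4 and 47.7 CPM, and was the second subunit that fell (log2 fold change -0.55, adjusted p = 0.049). That call sat at the threshold and was lost in 14 of 16 alternatives.

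Of the Q module, 4 of 8 subunits rose and 0 fell, with a median of 0.64. NDUFA9, an accessory subunit next to the quinone channel, had 68.5 and 60.6 CPM at 0.4 µM rotenone, against 18.9, 18.4, 16.2 and 16.2 CPM in DMSO (log2 fold change 1.89, SE 0.20, adjusted p = 8.8e-06), and neither rotenone culture came near a DMSO culture. NDUFS3, a core subunit that joins early in assembly, had 37.5 and 56.2 CPM, against 12.9, 11.4, 16.4 and 18.5 CPM (1.65, adjusted p = 0.00015). NDUFA5 had 123 and 106 CPM, against 54.7, 43.0, 42.6 and 59.1 CPM (1.20, adjusted p = 0.00032).

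The core subunits NDUFS7 and NDUFS8 did not pass. NDUFS7 had 14.5 and 14.0 CPM at 0.4 µM rotenone, against 8.92, 7.61, 13.6 and 8.09 CPM in DMSO (log2 fold change 0.54, adjusted p = 0.12), with no overlap. NDUFS8 had 14.4 and 12.9 CPM, against 17.5, 13.2, 21.3 and 16.0 CPM (-0.33, adjusted p = 0.29). Over all 7 core subunits 3 rose and 0 fell, with a median of 0.54, and over the other 30 subunits 19 rose and 2 fell, with a median of 0.86. The difference between these lists was not tested.

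The membrane arm had 12 rises and 1 fall among 20 subunits, with a median of 0.76. NDUFS5, on the side of the arm that faces the intermembrane space, had 69.9 and 91.5 CPM at 0.4 µM rotenone, against 32.3, 26.9, 29.7 and 22.8 CPM in DMSO (log2 fold change 1.52, adjusted p = 7.2e-05). NDUFB6 had 70.9 and 73.9 CPM, against 25.7, 31.3, 25.1 and 23.4 CPM (1.46, adjusted p = 5.8e-05). NDUFB9 had 95.3 and 101 CPM, against 44.3, 38.3, 45.1 and 35.7 CPM (1.26, adjusted p = 0.00013). Other members of the arm that rose had log2 fold changes of 1.11 (NDUFC1 and NDUFC2), 1.08 (NDUFB4), 0.96 (NDUFB7), 0.93 (NDUFA8), 0.83 (NDUFB3), 0.81 (NDUFB11), 0.70 (NDUFB2) and 0.60 (NDUFA1).

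NDUFB1, a small accessory subunit of the arm (14:92116122-92121917), went the other way. It had 19.1 and 14.7 CPM at 0.4 µM rotenone, against 30.0, 36.9, 30.2 and 28.6 CPM in DMSO. Both rotenone cultures were under all DMSO cultures (log2 fold change -0.88, SE 0.24, adjusted p = 0.0064), with -0.66 within run 5 and -0.96 within run 6. It was lost in 5 of 16 alternatives. The arm members that did not pass lay between 0.14 (NDUFB8) and 0.70 (NDUFB10) on the log2 scale, so no other one was below 0.

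NDUFAB1, the acyl carrier protein that sits in the complex in both arms, had 54.2 and 54.4 CPM at 0.4 µM rotenone, against 9.96, 10.2, 14.3 and 13.5 CPM in DMSO. The rotenone cultures were nearly equal and several times higher than any DMSO culture (log2 fold change 2.17, SE 0.23, adjusted p = 8.2e-06). NDUFA4, the complex IV protein that the rule took, had 353 and 357 CPM, against 99.9, 88.4, 112 and 116 CPM. Its rise (1.77, SE 0.19, adjusted p = 1.1e-05) was again present in both runs, with 1.65 in run 5 and 1.62 in run 6.

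**Figure D3:**
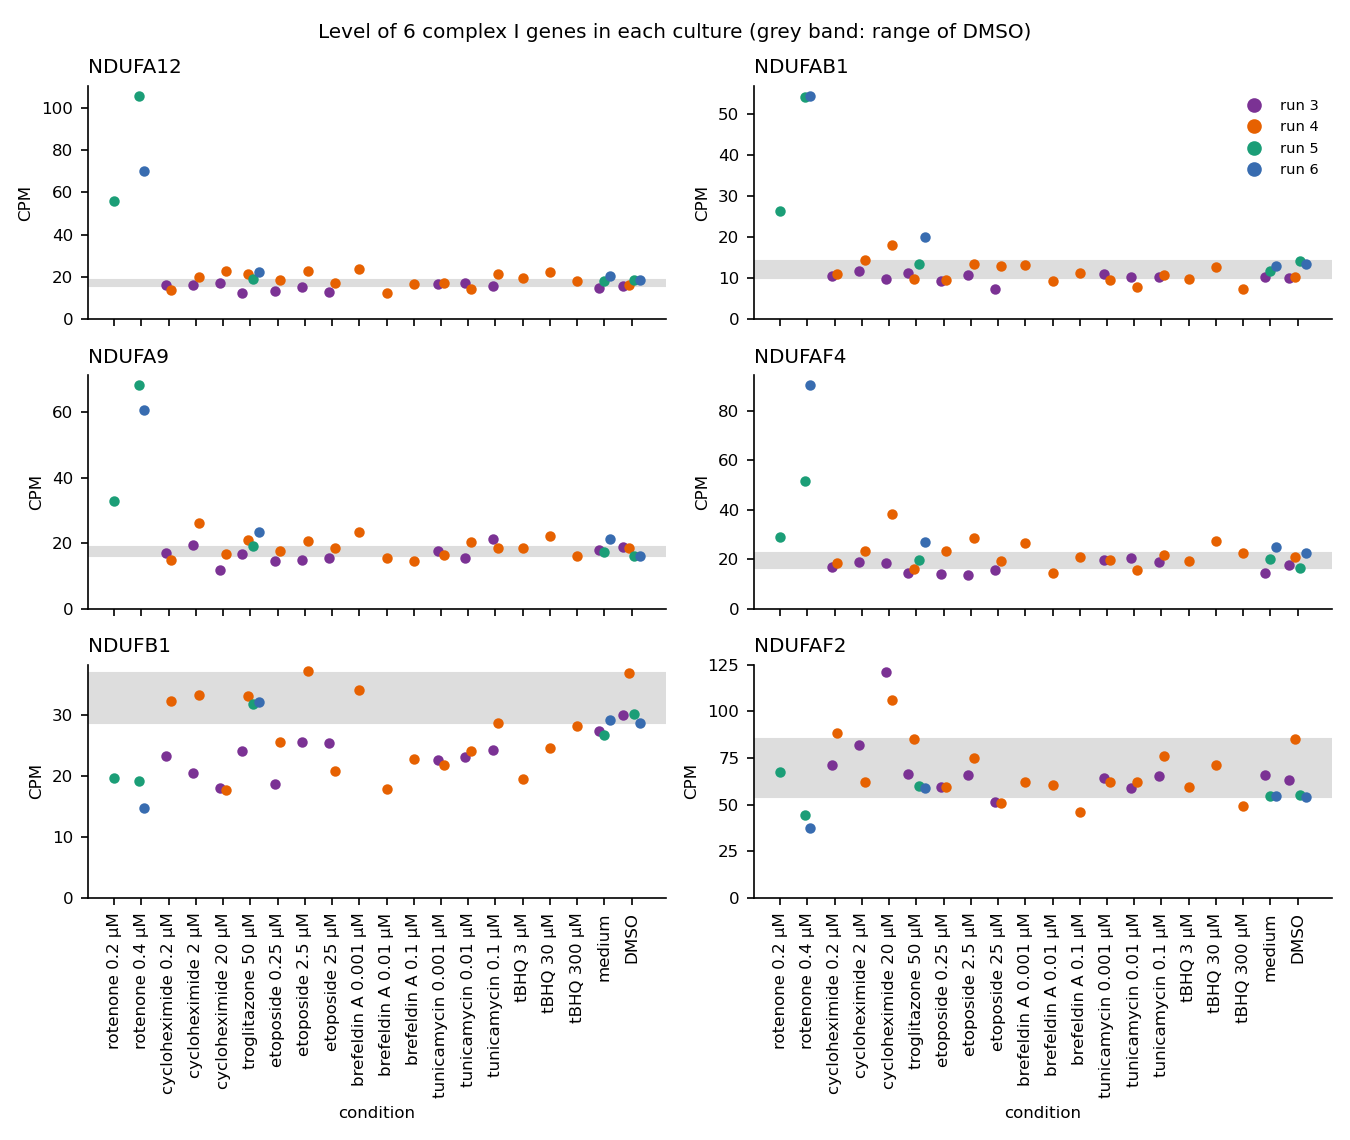
Level (CPM, vertical axes from 0) of NDUFA12, NDUFAB1, NDUFA9, NDUFAF4, NDUFB1 and NDUFAF2 in each of the 38 cultures, by treatment and dose along the horizontal axis, coloured by run; the grey band is the range of the 4 DMSO cultures. For the first 4 genes both 0.4 µM rotenone cultures are above all cultures without rotenone (for NDUFAF4 the highest of these is at 38.0 CPM), and NDUFAF2 is lowest at 0.4 µM rotenone and highest at 20 µM cycloheximide.

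The assembly factors split. NDUFAF4, which works with NDUFAF3 on the early Q module, had 51.5 and 90.4 CPM at 0.4 µM rotenone, against 17.6, 20.8, 16.6 and 22.6 CPM in DMSO (log2 fold change 1.88, SE 0.25, adjusted p = 4.8e-05), with the rotenone cultures far apart but both above DMSO. NDUFAF7, an arginine methyltransferase of the mitochondrion, had 43.1 and 44.2 CPM, against 24.5, 30.1, 18.8 and 24.7 CPM (0.85, SE 0.23, adjusted p = 0.0062). Both rises were present in each run, at 1.64 and 2.00 for NDUFAF4 and at 1.20 and 0.84 for NDUFAF7.

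NDUFAF5, which hydroxylates an arginine of NDUFS7, had 18.6 and 17.1 CPM at 0.4 µM rotenone, against 39.0, 50.9, 23.1 and 36.3 CPM in DMSO (log2 fold change -1.05, SE 0.30, adjusted p = 0.0087). The fall was -0.31 within run 5 and -1.09 within run 6, since the DMSO culture of run 5 was the lowest. NDUFAF2, the paralog of NDUFA12, had 44.4 and 37.4 CPM, against 63.3, 85.4, 55.3 and 54.2 CPM (-0.65, SE 0.24, adjusted p = 0.032). This was the opposite direction to NDUFA12, but close to the median of all genes tested (-0.56). The fall of NDUFAF2 was -0.32 within run 5 and -0.54 within run 6. The call of NDUFAF2 was lost in 9 of 16 alternatives and that of NDUFAF5 in 5.

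The other 4 assembly factors did not pass the test. NDUFAF1, a member of the complex that builds the membrane arm, had 10.4 and 10.9 CPM at 0.4 µM rotenone, against 12.3, 9.95, 10.8 and 8.09 CPM in DMSO (log2 fold change 0.03, adjusted p = 0.92). NDUFAF3 had 7.74 and 8.96 CPM, against 5.34, 4.39, 8.32 and 4.98 CPM (0.47, adjusted p = 0.21). NDUFAF6 had 147 and 127 CPM, against 189.9, 205, 144 and 169.9 CPM (-0.37, adjusted p = 0.15), and NDUFAF8, the partner of NDUFAF5, had 11.9 and 10.6 CPM, against 13.3, 17.6, 14.1 and 11.2 CPM (-0.31, adjusted p = 0.34). The last pair changed sign under TMM and DESeq2.

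Beyond the rule, 10 other assembly factors had 2 rises and 4 falls, with a median of -0.36. Of all genes tested 19.1% rose and 42.2% fell, with a median of -0.56, so these counts were near the shares of all genes. TMEM70, which helps to build complex I and ATP synthase, rose with a log2 fold change of 2.42 (40.9 ± 5.12 CPM at 0.4 µM rotenone, n = 2, and 7.44 ± 1.78 CPM in DMSO, n = 4), and TMEM126B rose with 1.10. ACAD9, which acts with TMEM126B and NDUFAF1 in the membrane arm, fell with -2.15 (12.3 ± 2.42 and 55.8 ± 4.62 CPM), NUBPL, which inserts iron-sulphur clusters, with -2.09, COA1 with -1.90 and FOXRED1 with -0.97. Of the 7 mitochondrially encoded subunits 5 fell and 0 rose, with a median of -1.64, while MT-ND4 stood at 2526 ± 138 CPM at 0.4 µM rotenone and 2494 ± 882 CPM in DMSO (adjusted p = 0.97). The nuclear subunits and the mitochondrially encoded ones thus had medians of opposite sign, and no test of that difference was made. The mitochondrially encoded levels come after the cell filter on mitochondrial UMIs. It kept 413 of 493 and 110 of 231 cells at 0.4 µM rotenone, and 311 of 393 (run 5) or 127 of 128 (run 4) in DMSO. The median mitochondrial share of kept cells at 0.4 µM rotenone was 14.4% and 16.5%, not below that of DMSO. The part of this filter was not tested.

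Gene length went with the fold changes most clearly among well expressed genes, and the classes differed in it. Over all genes tested the median log2 fold change at 0.4 µM rotenone was -0.43 under 10 kb, -0.45 between 10 and 100 kb and -0.97 above 100 kb, so the first pair of classes was close and the shortest genes were below 0. Among genes with at least 10 CPM on average it was 0.28 in the class under 10 kb, -0.12 between 10 and 100 kb and -1.04 above 100 kb. The subunits in these bins had medians of 0.60 (13 genes), 1.02 (20 genes) and 1.52 (3 genes), with 14 of the 20 genes of 10 to 100 kb rising and 1 falling, where 29.5% of all genes in that bin rose. The assembly factors in the same bins had medians of 0.79 (2 genes), 0.034 (3 genes) and -0.51 (2 genes). Both classes thus lay above the median of all genes in each bin. The subunits had a median length of 14.3 kb and the assembly factors of 22.0 kb, and NDUFAF2 and NDUFAF6, at 209 and 221 kb, were the longest factors. The part of gene length in the difference between the classes was not tested.

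**Figure D4:**
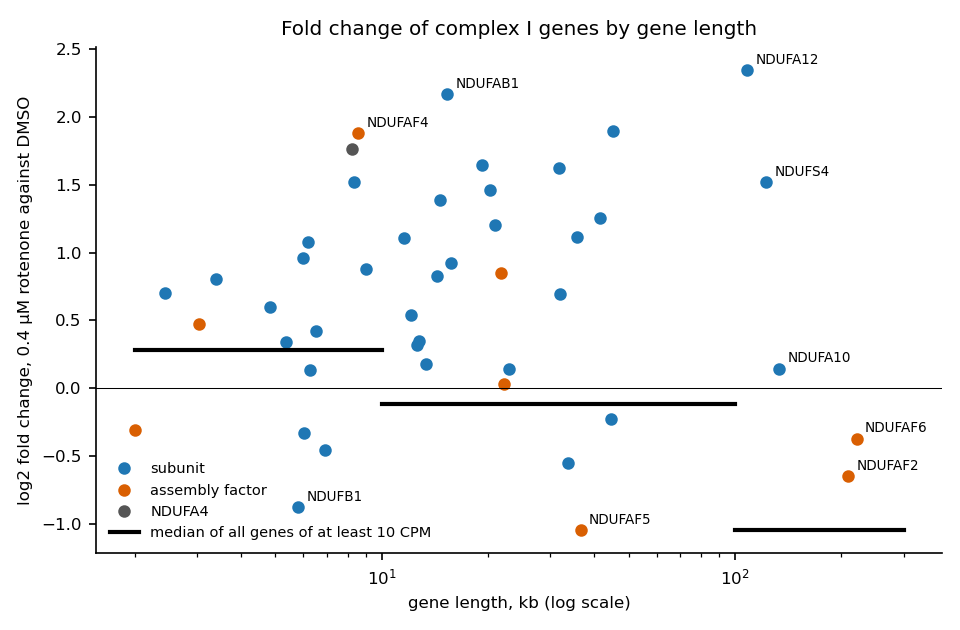
Log2 fold change at 0.4 µM rotenone against DMSO (vertical axis) of each member reported against its gene length in kb (horizontal log axis), with black lines for the median of all genes of at least 10 CPM in 3 bins of length. Most subunits lie above the line of their bin, and the lines are at 0.28, -0.12 and -1.04.

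Some members share sequence or position with other genes. Of the 46 members, 11 overlap a protein-coding gene on the same strand and 17 one on the other strand, and 21 have at least 1 pseudogene of their name (63 in all), so that part of their UMIs could be split or shared. Of the 20 subunits without such an overlap 11 rose and 2 fell, and of the 17 with one 11 rose and 0 fell. Of the 19 subunits without a pseudogene of their name 9 rose and 1 fell, and of the 18 with one 13 rose and 1 fell. Whether the counting used strand is not given in the sources used here, so reads of NDUFS3, NDUFAF7 and the other members with a gene on the opposite strand cannot be assigned for certain.

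The rises at 0.4 µM also stood out against the other treatments. Both 0.4 µM cultures were above each of the 35 cultures without rotenone for 18 of the 37 subunits, for NDUFA4 and for NDUFAF4 and NDUFAF7, where 14.9% of all genes with at least 1 CPM did the same. For NDUFA12 the highest of those 35 cultures had 23.7 CPM (brefeldin A 0.001 µM). Below all 35 lay 0 subunits and 2 assembly factors (NDUFAF2 and NDUFAF5), where 26.9% of all genes did.

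At 0.2 µM rotenone there was 1 culture (run 5, 449 cells), so the values have no replicate check and their 95% intervals (exact conditional binomial) cover counting error only. The median log2 ratio of the subunits to the pooled DMSO cultures was 0.28, that of the assembly factors 0.11 and that of all genes -0.11. Without the DMSO culture of run 5 the subunit median was 0.60. A total of 5 subunits were at least 2-fold higher and 0 were 2-fold lower, where 14.5% and 26.8% of all genes were. The log2 ratio to pooled DMSO was lower than the fitted log2 fold change at 0.4 µM for 28 of 37 subunits and for 6 of 8 assembly factors. These references differ, since the DMSO culture of run 5 holds most of the pooled UMIs. NDUFA11 counts as lower in this way, yet had 21.8 CPM at 0.2 µM against 16.5 and 20.0 CPM at 0.4 µM. Of the subunits 22 were above all 4 DMSO cultures, 2 below and 13 within, where 34.8% of all genes were above and 38.7% below.

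NDUFA12 had 55.8 CPM at 0.2 µM rotenone (log2 ratio 1.65, interval 1.55 to 1.75), between its DMSO and 0.4 µM levels. NDUFAB1 had 26.3 CPM, NDUFA9 33.0 CPM, NDUFV2 97.4 CPM and NDUFAF4 28.8 CPM, all between DMSO and 0.4 µM as well. Other genes did not follow that order. NDUFB8 (52.8 CPM), NDUFA13 (41.9 CPM) and NDUFA3 (24.9 CPM) were above both 0.4 µM cultures and all DMSO cultures. NDUFS7 had 36.5 CPM, above both 0.4 µM cultures (14.5 and 14.0 CPM) and all DMSO cultures (log2 ratio 1.65, interval 1.53 to 1.77), and NDUFA10, a membrane arm subunit, had 183 CPM against 98.7 and 84.7 CPM at 0.4 µM and at most 92.7 CPM in DMSO (log2 ratio 1.06, interval 1.02 to 1.11).

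NDUFB1 and NDUFV3 were lower at 0.2 µM too, at 19.6 CPM (log2 ratio -0.64) and 30.1 CPM (-0.63), both under all DMSO cultures. NDUFAF8 had the lowest ratio (6.86 CPM, -1.01, interval -1.17 to -0.86). NDUFAF2 at 67.6 CPM and NDUFAF5 at 49.8 CPM lay inside the DMSO range, unlike at 0.4 µM, where both fell.

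Cycloheximide at 20 µM was the only other treatment with called members. In this contrast, 6.52% of the 18706 genes tested rose and 13.2% fell. Of 36 subunits tested 1 rose and 1 fell, and of 8 assembly factors 1 rose and 1 fell. Among genes with at least 10 CPM on average, 2.94% of the subunits were called in each direction, against 8.99% and 15.4% of all genes. The subunit counts were thus below the shares of all genes, and those of the assembly factors were too small to compare. These counts do not set the members apart from all genes. NDUFS6 had 27.6 and 42.8 CPM with cycloheximide, against 20.6, 15.8, 21.0 and 19.3 CPM in DMSO (log2 fold change 0.83, SE 0.26, adjusted p = 0.039). NDUFB1 had 18.0 and 17.7 CPM, against 30.0, 36.9, 30.2 and 28.6 CPM (-0.81, SE 0.24, adjusted p = 0.035). For both genes the cycloheximide cultures did not overlap the DMSO cultures.

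NDUFAF2 had 121 and 106 CPM with 20 µM cycloheximide, against 63.3, 85.4, 55.3 and 54.2 CPM in DMSO (log2 fold change 0.82, SE 0.22, adjusted p = 0.022), the opposite direction to 0.4 µM rotenone. NDUFAF6 had 115 and 89.9 CPM, against 189.9, 205, 144 and 169.9 CPM (-0.78, SE 0.22, adjusted p = 0.026). The 2 cultures disagreed in the subunit total, with 875 CPM in run 3 and 1375 CPM in run 4. The calls of NDUFAF2 and NDUFAF6 were lost in 5 of 13 alternatives each, that of NDUFS6 in 6 and that of NDUFB1 in 9.

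Under the other treatments with 2 or more cultures no member passed the adjusted p. These were cycloheximide at 0.2 and 2 µM, etoposide and tunicamycin at all 3 doses, troglitazone and medium, where the share of all tested genes that rose was 0.078% for troglitazone (14 genes), 0.00538% for tunicamycin 0.1 µM (1 gene) and 0.00502% for cycloheximide 2 µM (1 gene), with 0 called in the other contrasts and 0 lower in all of them. Of the 37 subunits, 36 or 37 passed the filter on low counts in these contrasts. At an unadjusted p under 0.05, 4 subunits were lower with etoposide 0.25 µM (11.1%, against 1.75% of all genes), 3 with tunicamycin 0.001 µM (8.11%, against 0.785%) and 3 with tunicamycin 0.01 µM (8.33%, against 1.79%). The counts of 1 lower with etoposide 25 µM (2.78%, against 2.22%) and 1 higher with cycloheximide 2 µM (2.78%, against 3.23%) were near the share of all genes. The median log2 fold change of the subunits lay between -0.29 (etoposide 0.25 µM) and 0.13 (cycloheximide 2 µM). The median at cycloheximide 2 µM was 0.36 without its culture of run 3 and -0.26 without that of run 4, and that at etoposide 0.25 µM was -0.19 without its culture of run 3 or without the DMSO culture of run 5.

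**Figure D5:**
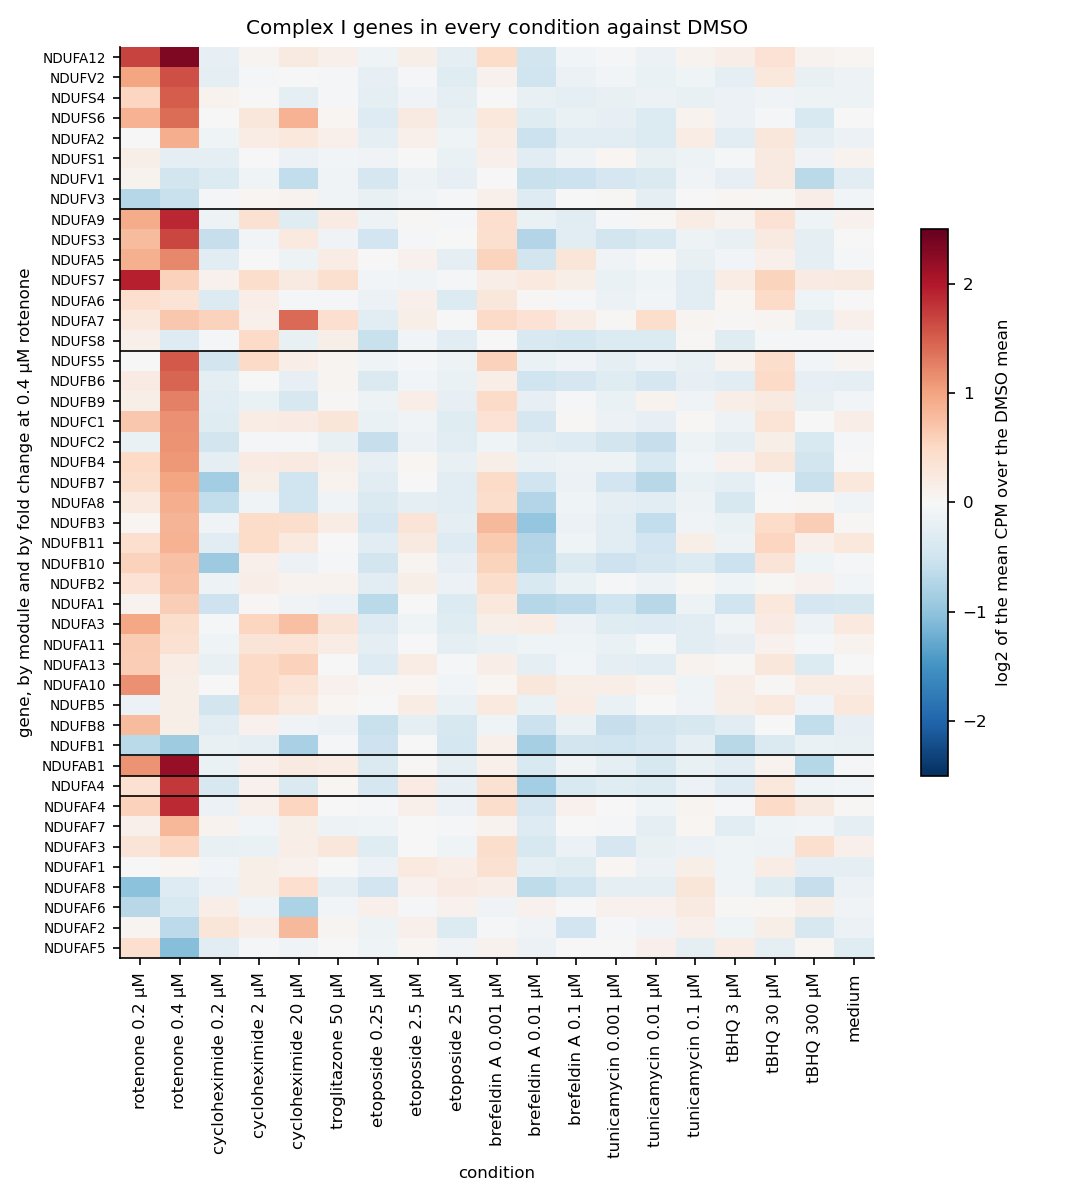
Log2 of the mean CPM in each condition (columns) over the mean CPM in DMSO for each member reported (rows, by module, with lines between modules), as a colour scale from -2.5 (blue) to 2.5 (red). Both rotenone columns stand out, with most subunits red (2.35 for NDUFA12 by the fit at 0.4 µM) and the assembly factors mixed.

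The treatments with 1 culture in use (run 4) were brefeldin A and tBHQ, and their values have no test. For brefeldin A at 0.001, 0.01 and 0.1 µM the median log2 ratio of the subunits to pooled DMSO was 0.18, -0.43 and -0.25. For tBHQ at 3, 30 and 300 µM it was -0.22, 0.12 and -0.24. Without the DMSO culture of run 5 the median at 0.1 µM brefeldin A was -0.029. Against the DMSO culture of the same run the medians moved to 0.53, -0.12 and 0.12 for brefeldin A and to 0.15, 0.33 and 0.060 for tBHQ (a comparison chosen after seeing the data), and that DMSO culture is the one with few mitochondrial UMIs.

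At 0.01 µM brefeldin A, 2 subunits of the membrane arm were at least 2-fold lower than in pooled DMSO, NDUFB3 (5.19 CPM, log2 ratio -1.20, interval -1.67 to -0.76) and NDUFB11 (5.19 CPM, -1.07), where 4.54% of all genes were, and 0 were 2-fold higher, where 1.32% of all genes were. Neither of the pair stayed 2-fold lower without the DMSO culture of run 5, which holds most of the pooled DMSO UMIs, or against the mean of the 4 DMSO log2 levels. At 0.001 µM the largest ratio was that of NDUFA5 at 73.7 CPM (0.65), and at 0.1 µM the lowest was NDUFA1 at 18.6 CPM (-0.72). With tBHQ the extremes were NDUFB10 at 3 µM (10.0 CPM, -0.79), NDUFAF4 at 30 µM (27.2 CPM, 0.63) and NDUFAB1 at 300 µM (7.32 CPM, -0.82).

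Among the 35 cultures without rotenone the members often peaked in the same few cultures. Troglitazone of run 6 was the highest for 11 members, and cycloheximide of run 4 at 2 and 20 µM for 10 each. The lowest culture was cycloheximide 20 µM of run 3 for 9 members and cycloheximide 0.2 µM of run 4 for 7.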

How the data were processed

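Transcripts of single HepaRG cells were counted in 8 sublibraries. The authors ran the Parse Biosciences pipeline, which read the barcodes, aligned reads to GRCh38 (also named in the submitters' processing notes) and collapsed identical UMIs, and they deposited whole UMI counts per gene and cell. The pipeline's version, annotation and use of strand are not named. Cells below 500 genes or above 20% mitochondrial UMIs are described as removed but were present in the files, and were left out here, as were 9 of the 47 cultures with fewer than 30 remaining cells. No doublet caller was run. UMIs were summed per culture, since cells are not replicates.

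Treatments with 2 or more cultures were set against the 4 DMSO cultures with edgeR 4.0.16 (quasi-likelihood test, total-count scaling, filterByExpr, Benjamini-Hochberg adjustment over all genes, threshold 0.05). The fit was tried on simulated counts in which most genes were unchanged, which does not bear on the choice of scaling. Single cultures had no test. The members and gene lists were chosen with earlier results of these data known. Genes named were the 5 largest rises and falls among called members that moved 1 way in every treated culture, those called against the majority, all NDUFAF genes, NDUFA4 and NDUFA12; for single cultures the rule took the 3 largest and 3 smallest ratios among members with at least 50 UMIs, of which the extremes are printed. Further members, such as NDUFV1, NDUFS1 and those listed by module, were named after their values were seen. Alternatives were TMM scaling, DESeq2 1.42.0, totals without mitochondrially encoded genes, no filter on low counts, all cells, each cell scaled equally, a replicate block and leaving out each culture. Gene positions came from GENCODE 44. Values of 1 member are not reported here, though counts, medians and sums include it.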

Additional observations from a re-analysis of the deposited data

Results flagged for a closer look

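A total of 92 pairs of a member and a group of 4 cultures (DMSO and troglitazone) were checked with Dixon's test for a culture far from the other 3, and 3 were found, where chance flags about 1 in 20 such groups. NDUFA11, a subunit of the membrane arm, was at 21.3 CPM in the DMSO culture of run 5, against 10.8 to 12.0 CPM in the other DMSO cultures. It was at 17.4 CPM in the troglitazone culture of run 6, against 15.2 to 15.4 CPM in the others. NDUFB1 was at 24.0 CPM in the troglitazone culture of run 3, against 31.7 to 33.1 CPM in the others.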

How the results depend on the processing

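At 0.4 µM rotenone, leaving out each culture in turn gave 16 to 26 subunits higher and 2 to 3 assembly factors higher. The number lower was 1 to 2 in each class, and for subunits it was 1 without any culture but the DMSO culture of run 5, while for assembly factors it was 1 without the DMSO cultures of runs 3 or 4 or without either rotenone culture. Of the 22 subunits that rose, 12 were called in all 16 alternatives, as were NDUFAF4, NDUFAF7 and NDUFA4, against 0 of the 2 subunits and 0 of the 2 assembly factors that fell. Subunits lower numbered 0 with TMM and with DESeq2, and 1 each with totals without mitochondrially encoded genes, no filter on low counts, all cells, and medium or troglitazone in place of DMSO (the last pair chosen after seeing the data). Assembly factors lower numbered 0 with TMM and with DESeq2. NDUFAF6 was at 0.089 (TMM) and 0.13 (DESeq2) on the log2 scale, NDUFAF8 at 0.15 and 0.21, and NDUFAF1 at -0.059 without the DMSO culture of run 6. At 20 µM cycloheximide, leaving out a culture gave 0 to 1 subunits higher, 0 to 3 lower (3 without its run 4 culture) and 0 to 1 assembly factors in each direction, and subunits lower numbered 0 with DESeq2 and with no filter. The cause of these shifts was not tested.

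Cultures of different treatments share run numbers. With 3 or more pairs, the correlation of same-run deviations was 0.49, -0.23 and 0.25 for medium (runs 3, 5 and 6) and 0.47, 0.59, 0.0059 and 0.55 for troglitazone (runs 3 to 6). With 2 pairs it was 0.56 for cycloheximide 0.2 µM, 0.42 and 0.40 for the lower doses of etoposide and 0.64, 0.45 and 0.48 for tunicamycin, but -0.053 and -0.043 for cycloheximide 20 µM and etoposide 25 µM. Since not every pair was over 0.1 and no label states a shared batch, the runs were taken to share only a number, although most of these contrasts deviated together by run. With a replicate block for run, in cultures of shared runs, 12 subunits rose and 0 fell at 0.4 µM rotenone and 0 assembly factors fell. The same cultures without the block gave 14, 0 and 0, and crossed run numbers (the same-run correlation was -0.25) gave 14, 1 and 0. At 20 µM cycloheximide the block left 0 members called, and the same cultures without it gave 0 subunits higher, 0 lower, 0 assembly factors higher and 1 lower. The block called 1 subunit lower at 0.001 µM tunicamycin and changed no other count of members. Crossing the runs of 2 µM cycloheximide (-0.24) called 371 genes higher and 220 lower, with 0 members. The crossed and unblocked fits of shared runs were chosen after seeing the data.

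For single cultures, the DMSO culture of the same run alone (also chosen after seeing the data) gave subunit medians of 0.53, -0.12 and 0.12 for the low, middle and high dose of brefeldin A and of 0.15, 0.33 and 0.060 for those of tBHQ, and assembly factor medians of -0.18 and -0.51 for the low and middle dose of brefeldin A and of -0.23, -0.21 and -0.26 with tBHQ. At 0.2 µM rotenone, TMM gave 0.50 for subunits and 0.32 for assembly factors. Leaving out DMSO cultures gave 0.23 to 0.60 for subunits at 0.2 µM rotenone, -0.33 to -0.029 for subunits at 0.1 µM brefeldin A and -0.087 to 0.12 for assembly factors at 300 µM tBHQ, in each case farthest from the value with all 4 when run 5 was left out, and all cells gave -0.12 for the last. The summed subunits at 0.2 µM cycloheximide had a log2 ratio of -0.32 when each cell was scaled equally. Of the counts, medians and sums (not the single genes), 675 values under the alternatives listed in the methods and 56 under those chosen after seeing the data stayed within 1.5 times or within the spread of DMSO, and 49 and 22 did not. Depth limits the values of NDUFA7 most, at 0.415 to 1.32 CPM in DMSO.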
